A study of Mus musculus with 2 samples.

Results

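Lipid droplet coat, fatty acid binding and lipolysis genes were described in mouse 3T3-L1 cells, a preadipocyte line that becomes fat cells after hormonal induction. The 10 genes, Plin2, Plin3, Plin4, Cidec, Fabp4, Fabp5, Pnpla2, Lipe, Mgll and Abhd5, were chosen by name, with earlier results of these data known. Shares set beside those of all genes therefore only describe this list. Every probe set that the array annotation assigns to one of these genes alone was taken, which gave 21 probe sets. The 10 genes stand among 18193 genes with such a probe set. One group received an siRNA against Phf21a, which encodes the histone reader BHC80, and the other the control siRNA siGL3. Both were induced with insulin, dexamethasone and 3-isobutyl-1-methylxanthine 24 h after transfection, in medium with 25 mM glucose and 10% FBS, and total RNA was taken 24 h later. Each group held 1 Affymetrix array (n = 1), so no value has a replicate error, no test was possible, and differences are described by their size only. The sources used here do not say which siRNA sequence was used or whether several were pooled. Phf21a itself read 306, 233 and 67.0 on the Phf21a siRNA array, against 768, 592 and 111 on the control siRNA array, on its 3 detected probe sets, with log2 ratios, Phf21a siRNA over control siRNA, from -1.35 to -0.73, and a further probe set was undetected at 43.8 on the Phf21a siRNA array, against 39.2 on the control siRNA array.

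Fat cells store triglyceride in droplets whose surface is coated by perilipins and by the fusion protein Cidec. Fatty acid binding proteins carry fatty acids through the cytosol. In lipolysis, adipose triglyceride lipase (Pnpla2), with its coactivator Abhd5, hormone-sensitive lipase (Lipe) and monoglyceride lipase (Mgll) act one after the other, and cAMP signalling drives the process. Early in adipogenesis Plin2 and Plin3 coat the small droplets, and Plin1 and Cidec are known for the large droplets of mature fat cells. Plin1 had no probe set assigned to it alone, so it has no value here.

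The coat genes Plin2, Plin3 and Plin4, the fatty acid carrier Fabp4 and the first lipase, Pnpla2, were higher on the Phf21a siRNA array than on the control siRNA array, by 1.67-fold to 2.83-fold. Fabp5 and Abhd5 were within the scatter of genes of like signal, as was Lipe, which lay below 0. Cidec and Mgll were not detected on either array. A probe set was called detected when the higher of its signals reached the median of all signals of both arrays, 51.3, and a gene was read from its brightest detected probe set. Of the 10 genes 8 were detected, on 11 probe sets, all of which were above that limit on both arrays. Of these 8 genes 5 lay 1.5-fold or more above the control siRNA array, beside 15.1% of the 11301 detected genes, and 0 lay 1.5-fold or more below it, beside 13.9%. By 2-fold or more, 2 were higher (Plin4 and Pnpla2), beside 5.66% of detected genes, and 0 were lower, beside 5.44%. Counted by probe set, 6 of the 11 were higher by 1.5-fold or more, beside 14.2% of the 21092 detected probe sets of 1 gene, and 2 by 2-fold or more, beside 5.27%. Of the 11 probe sets 0 were lower by either size, beside 16.1% and 6.49%. The median log2 ratio, Phf21a siRNA over control siRNA, was 0.76 over the 8 genes and 0.03 over all detected genes. In such bulk RNA, fewer cells of a type and less RNA per cell cannot be told apart.

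Each log2 ratio is given ± a local spread. To get it, log2 ratios of the 1000 detected probe sets nearest in signal were taken, and their 84th minus 16th percentile was divided by 2. It sets 1 array against 1 array, holds any true changes, and says nothing of the spread between cultures. The 16th and 84th percentiles enclose 68% of those probe sets, so lying past the local spread is not rare. Signals are in MAS5 intensity units, and signals of different probe sets are not compared as levels.

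The deposited signals have the same trimmed mean on both arrays (500 after rounding), so differences are relative to the other transcripts. The bacterial poly-A control probe sets averaged 0.70 higher on the log2 scale on the Phf21a siRNA array, with 24 probe sets from 0.44 to 0.95, and the 18 hybridisation control probe sets averaged 0.24 higher. The sources used here do not say whether equal amounts of these controls were added. Scaling to the poly-A controls therefore lowers the log2 ratio of every gene above the floor by 0.70, after which 3.01% of detected genes were higher by 1.5-fold or more and 56.5% lower by that much. Relative to the shifted median of all genes, Plin4 was at 1.47, Pnpla2 at 1.22, Plin3 at 0.94 and Plin2 at 0.74. Fabp4 was at 0.71, Abhd5 at 0.38, Fabp5 at 0.04 and Lipe at -0.52. A common shift leaves the distance of such genes to the median unchanged. These distances are therefore fixed in advance and are no check of the higher values.

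**Figure D1:**
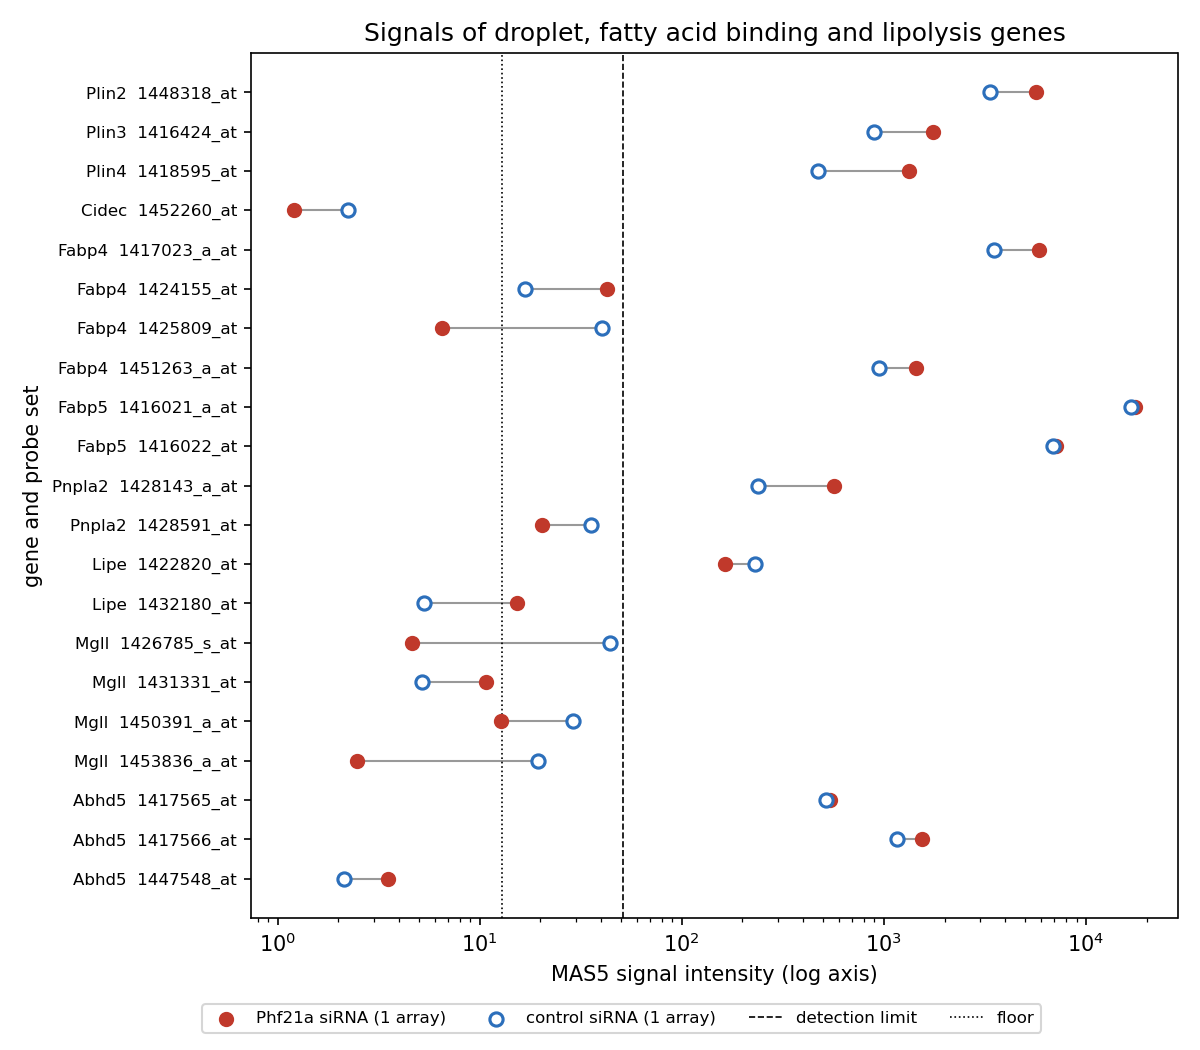
MAS5 signal intensity (log axis) of all 21 probe sets of the 10 genes, with 1 row per probe set, filled points for the Phf21a siRNA array, open points for the control siRNA array, and lines at the floor (12.9) and the detection limit (51.3). The points of Plin2, Plin3, Plin4, Pnpla2 and the brighter Fabp4 probe sets lie apart with the Phf21a siRNA array higher, those of Fabp5 nearly coincide, and all probe sets of Cidec and Mgll lie under the detection limit.

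Promoter sequence shows what stands before the start of the coat gene Plin3 and the lipase gene Pnpla2, both higher, and of Abhd5, which was within its spread. These are the 250 bases before the start in RefSeq, build GRCm38.p6, 5′ to 3′ on the gene's strand, with motif matches on either strand in capitals. Plin3 is from chr17:56290512-56290761 (minus strand), Pnpla2 from chr7:141454938-141455187 (plus strand) and Abhd5 from chr9:122351366-122351615 (plus strand).
Plin3: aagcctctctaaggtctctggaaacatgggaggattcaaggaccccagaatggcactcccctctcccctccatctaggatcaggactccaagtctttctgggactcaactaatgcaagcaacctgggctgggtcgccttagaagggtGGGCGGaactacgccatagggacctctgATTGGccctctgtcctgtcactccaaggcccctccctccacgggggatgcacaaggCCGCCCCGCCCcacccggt
Pnpla2: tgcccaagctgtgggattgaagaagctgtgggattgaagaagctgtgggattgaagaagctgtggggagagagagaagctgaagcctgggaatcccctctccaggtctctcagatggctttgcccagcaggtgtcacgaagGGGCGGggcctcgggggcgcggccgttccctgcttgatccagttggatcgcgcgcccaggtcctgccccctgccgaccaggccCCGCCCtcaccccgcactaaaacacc
Abhd5: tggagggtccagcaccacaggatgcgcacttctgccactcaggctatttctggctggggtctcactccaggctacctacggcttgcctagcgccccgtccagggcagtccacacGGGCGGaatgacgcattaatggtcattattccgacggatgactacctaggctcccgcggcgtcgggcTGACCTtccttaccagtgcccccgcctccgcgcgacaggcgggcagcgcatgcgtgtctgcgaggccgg

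The search covered both strands for exact matches to 6 motifs in windows from 250 bases before to 50 bases after the start. The table of RefSeq promoter windows used here holds 11 windows for 8 of the genes, and Fabp4 and Fabp5 were not searched. The PPAR response element (the motif AGGTCA repeated in the same direction with 1 base between) was in 0 of the 11 windows and in 0.0396% of all 32851 windows. An exact match is thus rare anywhere, and elements of other sequence or outside the windows were not searched. A single AGGTCA, to which many nuclear receptors bind, was found once each for Plin2 and Abhd5, and in 16.3% of all windows. The GC box GGGCGG was found 3 times for Plin3, where 2 matches overlap, 2 times for Pnpla2 and once each for Abhd5 and Plin2, in both windows of Mgll and 6 times in 1 of the 2 windows of Lipe, but not for Plin4 or Cidec, and 35.7% of all windows hold it. The motif CCAAT was found once each for Plin2, Plin3 and Plin4 (37.4% of windows). The E-box CACGTG was found once each for Plin2, Lipe and Mgll (7.15% of windows), and the cAMP response element TGACGTCA in none of the 11 (1.79% of all windows). None of the 6 motifs was found for all of Plin2, Plin3, Plin4 and Pnpla2. Even the commonest is in only 37.4% of all windows, so this says little about these genes.

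Among the droplet coat genes, all 3 detected perilipins were higher on the Phf21a siRNA array. Plin4 encodes a perilipin that coats nascent droplets in fat cells, and its signal was 1333 on the Phf21a siRNA array, against 470.3 on the control siRNA array. This is 2.83-fold higher, a log2 ratio of 1.503 ± 0.51, and 1.91% of detected genes had a higher one. Plin3 encodes the perilipin TIP47, which moves from the cytosol onto forming droplets. Its signal was 1752 on the Phf21a siRNA array, against 896 on the control siRNA array, 1.95-fold higher (log2 ratio 0.97 ± 0.48), just short of 2-fold. Plin2 encodes adipophilin, the widespread coat protein of small droplets, with 5699 on the Phf21a siRNA array, against 3341 on the control siRNA array. It was 1.71-fold higher (log2 ratio 0.77 ± 0.37), and 9.83% of detected genes had a higher log2 ratio. Each of the 3 genes has a single probe set, so none has a second reading on the same RNA. Scaled to the poly-A controls, Plin4 was at 0.80, Plin3 at 0.27 and Plin2 at 0.07, which leaves only Plin4 of the 3 past 1.5-fold.

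Cidec, which joins droplets into larger ones, had a signal of 1.20 on the Phf21a siRNA array, against 2.24 on the control siRNA array. Both signals are under the floor of 12.9, the 25th percentile of all signals, to which signals were raised before log2 was taken, so no fold is given. Plin5, the perilipin of oxidative tissues and a direct neighbour of Plin4 on chromosome 17, was not detected either. Its brighter probe set read 42.2 on the Phf21a siRNA array, against 44.6 on the control siRNA array. Plin3 lies on the same chromosome, with 8 protein-coding genes between it and Plin4. Thus the neighbour of the coat gene with the largest log2 ratio stayed under the detection limit on both arrays.

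**Figure D2:**
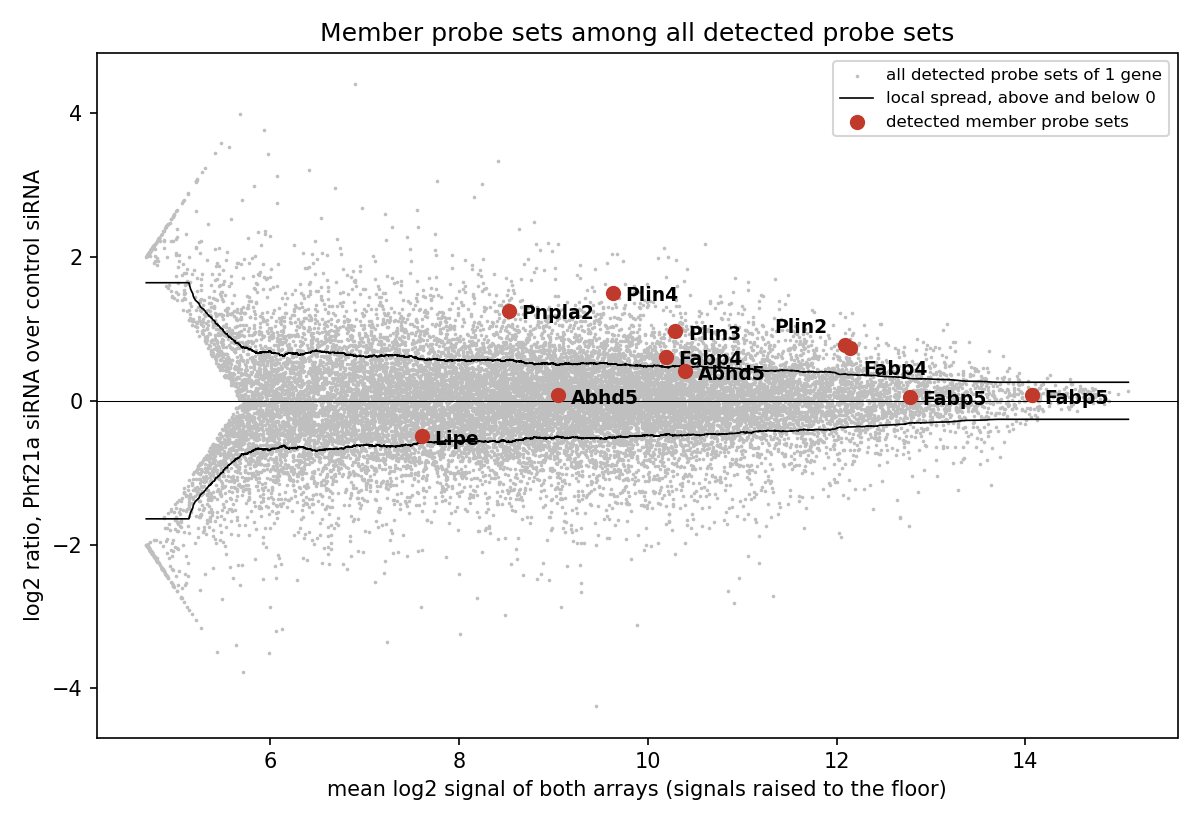
Log2 ratio, Phf21a siRNA over control siRNA, against the mean log2 signal of both arrays for all 21092 detected probe sets of 1 gene (grey), with the local spread above and below 0 (lines) and the 11 detected probe sets of the genes described (red). Plin4, Pnpla2, Plin3, Plin2 and both Fabp4 probe sets lie above the upper line, and those of Fabp5, Abhd5 and Lipe lie between the lines.

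Of the fatty acid binding genes, Fabp4 was past its local spread and Fabp5 within it, and the difference between them was not tested. Fabp4 encodes the fatty acid binding protein of fat cells, also made by macrophages, and is induced by PPARγ. Its brightest probe set read 5849 on the Phf21a siRNA array, against 3502 on the control siRNA array, 1.67-fold higher (log2 ratio 0.74 ± 0.36). The other detected probe set read 1442 on the Phf21a siRNA array, against 945 on the control siRNA array, with a log2 ratio of 0.61 ± 0.47. Both detected readings of Fabp4 thus lay in the same direction and 0.13 apart. Another, under the detection limit, read 42.7 on the Phf21a siRNA array, against 16.8 on the control siRNA array. The fourth, also under the limit, ran the other way, with 6.49 on the Phf21a siRNA array, against 40.5 on the control siRNA array. Scaled to the poly-A controls, Fabp4 was at 0.04. Leukocyte and macrophage markers, whose cells also express Plin2, Fabp4 and Fabp5, were detected for 6 of 10 genes, with 4 higher and 1 lower by 1.5-fold or more, which is 66.7% and 16.7% of the 6, beside 15.1% and 13.9% of all detected genes. Of these, Fcer1g (1.08 ± 1.38, within its spread) and Laptm5 (-1.58 ± 1.30) were above the detection limit on 1 array only. The summed signal of all these markers was 1569 on the Phf21a siRNA array, against 938 on the control siRNA array. Most of it is Cd14 and Csf1r, at 804 and 452 on the Phf21a siRNA array, against 479 and 199.7 on the control siRNA array. This Csf1r probe set had a log2 ratio of 1.18 ± 0.56. The other detected Csf1r probe sets gave 0.22 ± 0.62 and 0.18 ± 0.63, within their spread. Cd68 read 119 on the Phf21a siRNA array, against 64.0 on the control siRNA array. Its log2 ratio of 0.89 ± 0.69 was past its spread, and Lyz2 was within its spread at 0.42 ± 0.67. Ptprc, Tyrobp and Cd52 were undetected, all at 12.2 or less on both arrays. Adgre1 was undetected too, at 23.5 on the Phf21a siRNA array, against 36.2 on the control siRNA array. The part of these markers in the Fabp4 and Plin2 values was not tested.

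Fabp5 encodes the epidermal fatty acid binding protein, which fat cells and macrophages also express. Its probe sets read 17609.9 and 7146 on the Phf21a siRNA array, against 16729 and 6896 on the control siRNA array. The log2 ratios were 0.07 ± 0.26 and 0.05 ± 0.31, within the local spread on both. The sign of Fabp5 turned under scaling to the hybridisation controls (-0.16) and to the poly-A controls (-0.62). RefSeq lists a Fabp5-like gene, Fabp5l2, and whether its transcripts reach these probe sets was not tested. On chromosome 3 the protein-coding genes between Fabp5 and Fabp4 are Pmp2, the binding protein of myelin, and Fabp9, that of testis. Pmp2 read 76.6 on the Phf21a siRNA array, against 15.4 on the control siRNA array, a log2 ratio of 2.31 ± 1.64 with 1 signal under the detection limit. Fabp9 was undetected on both of its probe sets. The bright genes of this stretch thus gave one higher value, Fabp4, and one near 0, Fabp5.

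Among the lipolysis genes, the first enzyme of the pathway was past its local spread, its coactivator and the second enzyme were within theirs, and the last enzyme was undetected. Pnpla2, adipose triglyceride lipase, read 568 on the Phf21a siRNA array, against 238 on the control siRNA array. It was 2.38-fold higher (log2 ratio 1.25 ± 0.56), and 3.16% of detected genes had a higher log2 ratio. A dim second probe set, under the detection limit, ran the other way at 20.3 on the Phf21a siRNA array, against 35.7 on the control siRNA array. Abhd5 encodes CGI-58, the protein that activates adipose triglyceride lipase once released from perilipin. Its brighter probe set read 1551 on the Phf21a siRNA array, against 1167 on the control siRNA array (log2 ratio 0.41 ± 0.48). The other detected one read 543 on the Phf21a siRNA array, against 516 on the control siRNA array (0.07 ± 0.50), and the last was undetected at 3.53 on the Phf21a siRNA array, against 2.13 on the control siRNA array. Both detected readings of Abhd5 were within the local spread, and its sign turned to -0.29 when scaled to the poly-A controls.

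Lipe, hormone-sensitive lipase, which splits diglyceride, read 164 on the Phf21a siRNA array, against 231 on the control siRNA array. Its log2 ratio of -0.49 ± 0.58 was within the local spread, and scaled to the poly-A controls it was at -1.19. A second Lipe probe set was undetected at 15.4 on the Phf21a siRNA array, against 5.31 on the control siRNA array. Mgll, the lipase of the last step, was undetected on all 4 of its probe sets. Its probe sets read 4.61, 10.8, 12.7 and 2.46 on the Phf21a siRNA array, against 44.1, 5.16, 28.8 and 19.5 on the control siRNA array. On each, at least 1 signal was under the floor, so no fold and no direction is given.

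The rest of the droplet pathway was read from a list of coat and droplet formation genes. Of 26 symbols 23 had a probe set and 18 were detected, with 2 higher and 4 lower by 1.5-fold or more and a median log2 ratio of 0.16. These shares, 11.1% and 22.2%, stand beside 15.1% and 13.9% of all detected genes. Of the genes counted, Vps13c was above the detection limit on the Phf21a siRNA array only, and Hsd17b13 on the control siRNA array only. Ldah, a hydrolase on the droplet surface, read 677 on the Phf21a siRNA array, against 2676 on the control siRNA array, 3.95-fold lower (log2 ratio -1.98 ± 0.48). Its other detected probe set gave -1.79 ± 0.48. Hsd17b11, a dehydrogenase that sits on droplets, read 4006 on the Phf21a siRNA array, against 2019 on the control siRNA array (log2 ratio 0.99 ± 0.42), and its other detected probe set gave 1.29 ± 0.50. Both genes thus had a second reading past 1.5-fold in the same direction. Fitm2, an endoplasmic reticulum protein needed to bud droplets, read 390.5 on the Phf21a siRNA array, against 629 on the control siRNA array (log2 ratio -0.69 ± 0.52). Mettl7a1, a methyltransferase-like droplet protein, was at -1.05 ± 0.57, with another probe set at -0.29, and the dim droplet dehydrogenase Hsd17b13 was at -1.07 ± 0.68. The dim lipid transfer gene Vps13c read 51.8 on the Phf21a siRNA array, against 10.5 on the control siRNA array, where it was under the floor. Hilpda, an inhibitor of adipose triglyceride lipase, was within its spread at 0.22 ± 0.52.

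**Figure D3:**
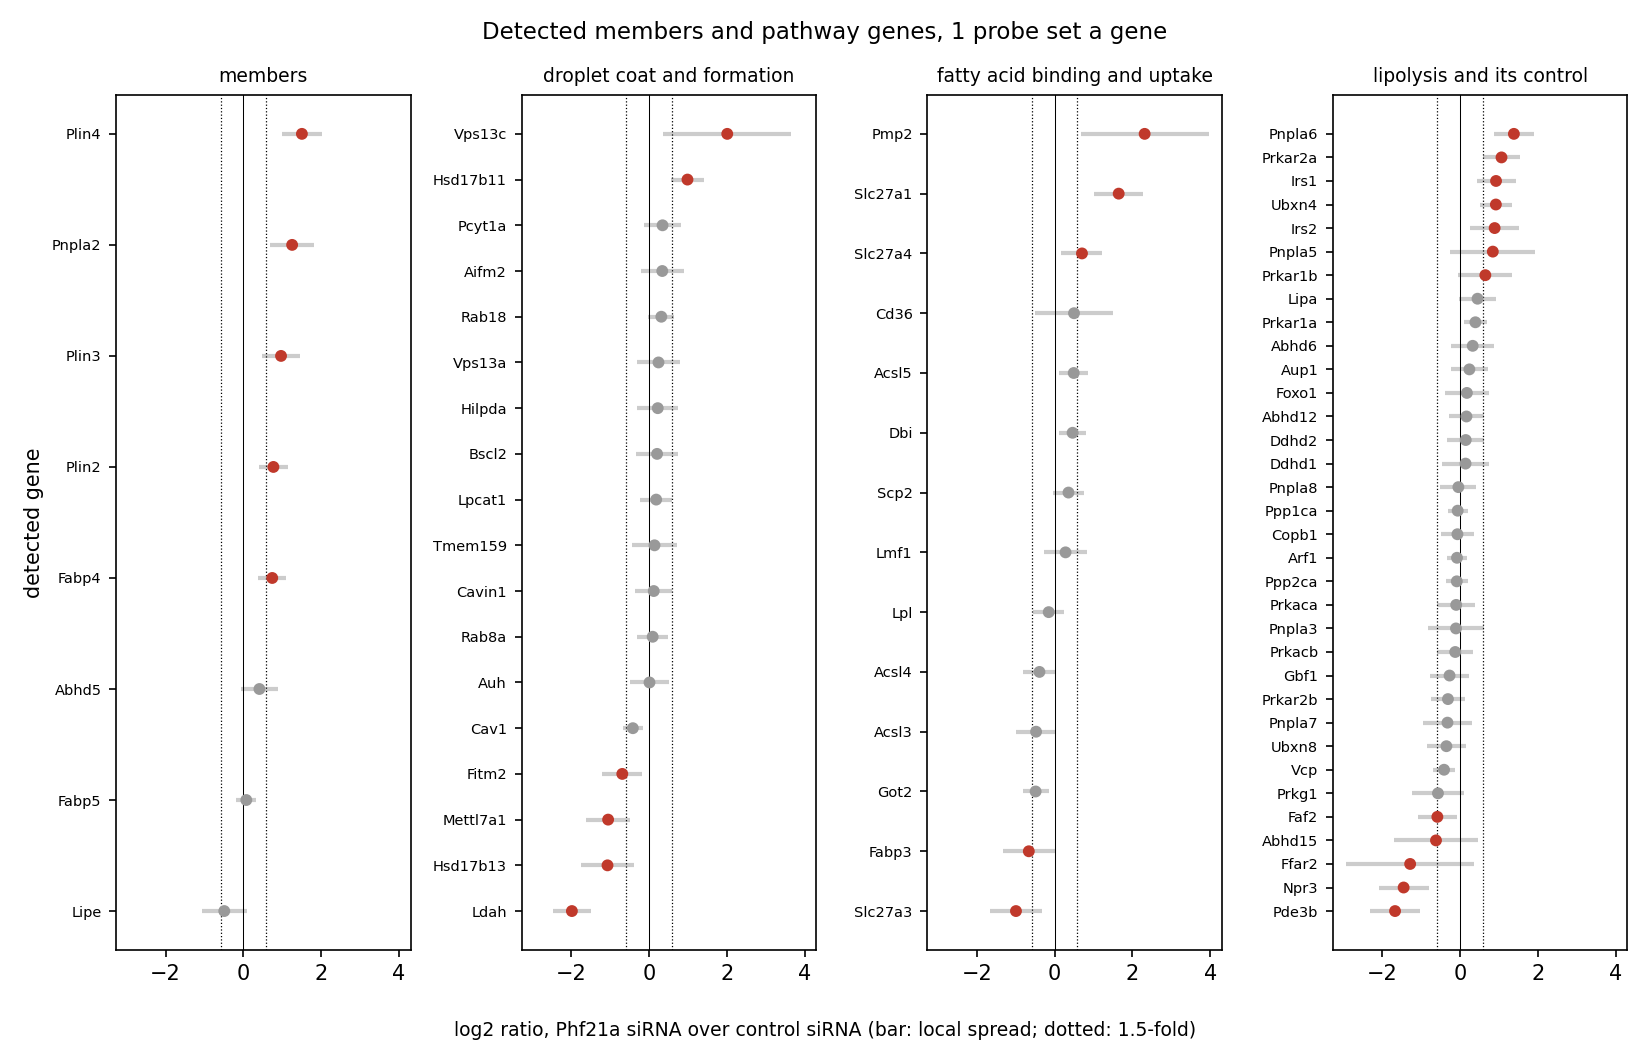
Log2 ratio, Phf21a siRNA over control siRNA, of each detected gene on its brightest probe set, for the 8 detected genes described here (panel headed members) and for 3 lists of other pathway genes, with bars for the local spread, dotted lines at 1.5-fold and red points for genes past it. Values in the 3 lists run from -1.98 for Ldah to 2.31 for the dim Pmp2, on both sides of 0, and the point of Vps13c is set against the floor.

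Genes of fatty acid binding and uptake had 14 of 27 genes on the array detected, with 3 higher and 2 lower by 1.5-fold or more and a median log2 ratio of 0.32. The shares, 21.4% and 14.3%, stand beside 15.1% and 13.9% of all detected genes, so the lower share is near that of all genes. The higher share rests on only 3 genes, and its difference was not tested. Both lower genes, Slc27a3 and Fabp3, were above the detection limit on the control siRNA array only, and Pmp2 on the Phf21a siRNA array only, so that passing the limit favours a difference in them. Slc27a1, a fatty acid transport protein, read 286 on the Phf21a siRNA array, against 91.4 on the control siRNA array (log2 ratio 1.65 ± 0.63, second probe set 0.71 ± 0.67). Slc27a4, of the same family, read 617 on the Phf21a siRNA array, against 379 on the control siRNA array (0.70 ± 0.53, and 0.01 when scaled to the poly-A controls). Slc27a3 was on the other side, at 47.8 on the Phf21a siRNA array, against 95.1 on the control siRNA array (-0.99 ± 0.66). The dim Fabp3, the heart fatty acid binding protein, was at -0.66 ± 0.66, and Pmp2 is given above. Lpl, which frees fatty acids from lipoproteins, was within its spread at -0.15 ± 0.40. Cd36, a fatty acid receptor of fat cells and macrophages, was close to the limit at 53.0 on the Phf21a siRNA array, against 37.5 on the control siRNA array.

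Genes that control lipolysis had 34 of 43 genes on the array detected, with 7 higher and 5 lower by 1.5-fold or more and a median log2 ratio of -0.07. The shares, 20.6% and 14.7%, stand beside 15.1% and 13.9% of all detected genes, so the lower share is near that of all genes. The higher share rests on 7 genes, of which Pnpla5 and Prkar1b were within their spread, and its difference was not tested. Of the genes counted, Pnpla5 was above the detection limit on the Phf21a siRNA array only, and Abhd15 and Ffar2 on the control siRNA array only, so that passing the limit favours a difference in them. Pde3b, the phosphodiesterase through which insulin restrains lipolysis, read 65.8 on the Phf21a siRNA array, against 210.0 on the control siRNA array, 3.19-fold lower (log2 ratio -1.67 ± 0.64). Prkar2a, a regulatory subunit of the cAMP-dependent protein kinase, read 1672 on the Phf21a siRNA array, against 801 on the control siRNA array (1.06 ± 0.47), and its other detected probe sets gave 1.17 and 0.64. The insulin receptor substrates Irs1 (0.92 ± 0.50) and Irs2 (0.89 ± 0.62) were higher too. Irs1 read 1132 on the Phf21a siRNA array, against 598 on the control siRNA array. Npr3, the clearance receptor of the lipolytic natriuretic peptides, read 68.9 on the Phf21a siRNA array, against 189 on the control siRNA array (-1.45 ± 0.64). Pnpla6, a phospholipase of the same family as Pnpla2, was at 1.38 ± 0.52, and Ubxn4, an endoplasmic reticulum partner of the ATPase VCP, was at 0.92 ± 0.42 with other probe sets at 0.74 and -0.06. The short-chain fatty acid receptor Ffar2 was within its spread at -1.29 ± 1.64. G0s2, the inhibitor of adipose triglyceride lipase, was undetected at 1.71 on the Phf21a siRNA array, against 3.74 on the control siRNA array. The remaining genes past 1.5-fold were Pnpla5 (0.84 ± 1.09), Abhd15 (-0.62 ± 1.07) and Prkar1b (0.65 ± 0.69), all within their spread, and Faf2 (-0.59 ± 0.50). Scaled to the poly-A controls, Prkar1b was at -0.05. The other detected probe sets of Prkar1b ran opposite ways. The first was at -0.90. The second read 61.8 on the Phf21a siRNA array, against 10.2, under the floor, on the control siRNA array.

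Markers were read to place these genes in the cells. Of the adipocyte markers 4 of the 7 on the array were detected, with a summed signal over the brightest probe sets of 4186 on the Phf21a siRNA array, against 4266 on the control siRNA array. Pparg, the regulator of fat cell genes, read 814 on the Phf21a siRNA array, against 512 on the control siRNA array (log2 ratio 0.67 ± 0.52), a sign that does not hold after poly-A scaling, and Cebpa, Adipoq and Lep were undetected. Retn, the adipokine resistin, and Slc2a4, the insulin-responsive glucose transporter, were each detected on 1 array only and went opposite ways. Retn read 70.9 on the Phf21a siRNA array, against 9.82 on the control siRNA array, and Slc2a4 read 8.99 on the Phf21a siRNA array, against 70.8 on the control siRNA array. Of the 4 detected markers 2 were thus higher and 1 lower by 1.5-fold or more. These shares, 50% and 25%, stand beside 15.1% and 13.9% of all detected genes. Retn and Slc2a4 are among those counted, and passing the limit favours a difference in them. Most of the sum is Lpl, at 3253 on the Phf21a siRNA array, against 3614 on the control siRNA array. Of the markers, those detected on both arrays were thus Pparg and Lpl, which come on early in adipogenesis, and none of the 6 brown fat markers on the array was detected. Preadipocyte and fibroblast markers were detected for 7 of 8 genes, with sums of 62700.2 on the Phf21a siRNA array, against 65868 on the control siRNA array. Of these 7, 1 was higher and 1 lower by 1.5-fold or more, which is 14.3% each, beside 15.1% and 13.9% of all detected genes. The higher one was Pdgfrb, a growth factor receptor of fibroblasts (log2 ratio 0.84 ± 0.42, the other probe set at 0.13 ± 0.52), and the lower one Dlk1, a preadipocyte protein lost as fat cells form (-1.05 ± 0.30, the other detected probe set at -1.78 ± 0.68). Epithelial markers were detected for 2 of 6 genes, with sums of 182 on the Phf21a siRNA array, against 305 on the control siRNA array, and endothelial markers for 0 of 4.

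**Figure D4:**
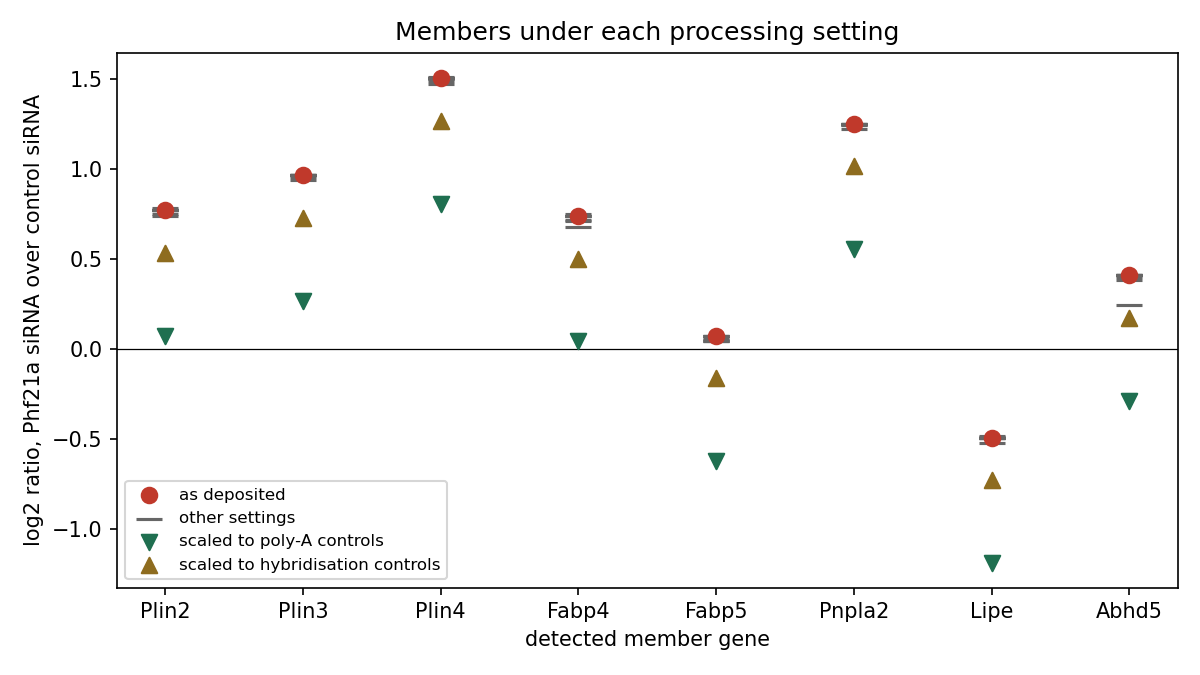
Log2 ratio, Phf21a siRNA over control siRNA, of the 8 detected genes under the deposited scaling (circles), after scaling to the hybridisation controls (upward triangles) or the poly-A controls (downward triangles), and under the other settings (bars). Plin4, Pnpla2, Plin3, Plin2 and Fabp4 stay above 0 at every setting that gave a value, Lipe stays below 0, Fabp5 turns below 0 under both control scalings, and Abhd5 does so under the poly-A scaling.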

How the data were processed

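Total RNA of 2 cultures of 3T3-L1 cells was measured on Affymetrix arrays, 1 array for Phf21a siRNA and 1 for control siRNA. Groups were taken from the sample source names. The values the authors deposited are linear signal intensity per probe set, computed with MAS5 per the submitters' processing notes (version not given in the sources used here). Mismatch signals are subtracted by MAS5, so low signals are noisy. The number of arrays limits the precision.

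Of 45101 probe sets 34945 had 1 gene symbol, 932 had several and 64 were controls. All 10 genes matched RefSeq by Entrez number. Before taking log2, signals under the pooled 25th percentile (12.9) were set to it, and ratios with a signal under it are not given as folds. Probe sets whose higher signal was under the pooled median were left out of counts, except the values shown for the genes described. A gene was represented by its detected probe set of highest geometric mean signal, without _x_at sets where another existed. Pathway genes at least 1.5-fold higher or lower were named, up to 8 per list. Genes, lists and rules were chosen with earlier results of these data known. Hilpda, G0s2, Cd36, Lpl, Plin5, Fabp9, Pnpla5, Abhd15, Prkar1b, Faf2, Dlk1, Pdgfrb, Fcer1g, Laptm5, Cd14 and Csf1r were named after their values were seen. So were Cd68, Lyz2 and Adgre1.

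Alternatives were other scalings, floors, detection limits and ways to combine probe sets. The calculation was run on simulated data whose noise was drawn from the local spread itself. That checks the arithmetic only and says nothing of the error between arrays or cultures. Python 3.11.15, numpy 2.4.6, pandas 2.3.3, statsmodels 0.14.6 and matplotlib 3.10.9 were used.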

Additional observations from a re-analysis of the deposited data

How the results depend on the processing

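Every count rests on 1 array a group, and signals near the detection limit set the dim genes. No paired analysis was possible because each group holds 1 array. Over 11 alternatives, Plin2, Plin3 and Plin4, and over the 10 that gave a value Fabp4 and Pnpla2, kept a log2 ratio above 0. Plin4 stayed past 1.5-fold in all 11. Many of these alternatives could hardly change the values. For Plin2, Plin3 and Plin4, each with a single bright probe set, changed floors, detection limits and probe set choices returned the reported log2 ratio. The pseudocount barely moved it, so mainly the scalings are a check of these genes. Leaving out suffixed probe sets removes Fabp4 and Pnpla2, since their detected probe sets carry suffixes, and the stricter detection limit removes Lipe. Among the genes described that counted as detected at each setting (all 10 with no detection limit), those at least 1.5-fold higher numbered 5 as reported, 3 without suffixed probe sets, 3 scaled to hybridisation controls and 1 scaled to poly-A controls. Those at least 1.5-fold lower numbered 0 as reported, 1 with no detection limit (Mgll, not among the 8), 1 scaled to hybridisation controls (Lipe) and 2 scaled to poly-A controls (Lipe and Fabp5). Those at least 2-fold higher numbered 2 as reported, 1 without suffixed probe sets and 0 scaled to poly-A controls, and those at least 2-fold lower 0 as reported and 1 both with no detection limit and scaled to poly-A controls. The median log2 ratio was 0.76 as reported and 0.057 scaled to poly-A controls.

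Droplet coat and formation genes at least 1.5-fold higher numbered 2 as reported and 1 with the floor at the pooled median, the stricter limit, no limit or poly-A scaling, and those lower 4 as reported, 2 with the stricter limit and 7 with poly-A scaling. Fatty acid binding and uptake genes higher numbered 3 as reported, 1 with the stricter limit and 5 with no limit. Those lower numbered 2 as reported, 0 with the stricter limit, 1 with quantile normalization, loess or the floor at the pooled median, 5 with hybridisation scaling and 6 with poly-A scaling. Lipolysis control genes higher numbered 7 as reported, 4 with the stricter limit and 1 with poly-A scaling. Those lower numbered 5 as reported, 1 with the stricter limit, 3 with quantile normalization or the floor at the pooled median, 8 with hybridisation scaling and 19 with poly-A scaling. The stricter limit tests fewer genes (7179), and control scaling shifts all genes by -0.24 or -0.70. Of all detected genes, 8.71% were then higher and 23.9% lower by 1.5-fold or more with hybridisation scaling, and 3.01% higher and 56.5% lower with poly-A scaling, so the counts above at those settings move with all genes. The cause of the other differences was not tested.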
